A study of Mus musculus with 12 samples.

Results

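Hox genes encode homeodomain transcription factors that give cells of the embryo their position along the head-to-tail axis. In the mouse they lie in 4 clusters, Hoxa on chromosome 6, Hoxb on chromosome 11, Hoxc on chromosome 15 and Hoxd on chromosome 2, and genes at the same place in different clusters form 13 paralog groups. The genes described here were all those whose symbol is Hox, a cluster letter and a number from 1 to 13, and that had a probe set annotated to that gene alone. This gave 31 of the 39 Hox genes in the RefSeq gene table, out of 12393 genes with such a probe set: 9 of 11 in Hoxa, 9 of 10 in Hoxb, 6 of 9 in Hoxc and 7 of 9 in Hoxd. Of 37 such Hox probe sets, the one with the highest mean log2 signal stood for each gene. Another 3 probe sets naming a pair of Hox genes were not used, and the remaining Hox genes were not analysed here.

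The cells were muscle progenitors of ICR embryos that carried Myf5Cre and RosaYFP in every group. Cre under control of Myf5, a muscle determination gene, switches on the yellow fluorescent protein in cells that have expressed Myf5 and in their descendants, and YFP+ cells were sorted by flow cytometry from head or from trunk tissue. Collection was at embryonic day (E) 9.5, E10.5 or E11.5, with 2 arrays for each of the 6 groups, 12 in all, and the sources used here do not give the level at which head was parted from trunk. Nothing in the labels says that paired arrays came from separate embryos, litters or pools, so the p-values here cover just the spread between these samples, which may be technical. In bulk RNA, fewer cells of a type and less RNA per cell cannot be told apart.

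As background, genes of low paralog number are switched on earlier and reach further towards the head than genes of high number, an order called collinearity that follows their order in the cluster. The hindbrain, the branchial arches and their neural crest carry Hox genes of low number up to sharp front borders, while the somites that supply trunk muscle carry a code that runs from neck to tail. Hox proteins bind DNA with partners of the Pbx and Meis families, and retinoic acid, Cdx factors and Wnt signals set the positions at which the genes are active.

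Probe set signals are MAS5 intensities on a linear scale, and the median over probe sets lay between 108.6 and 110.4 on the 12 arrays. Across probe sets, which are not independent, the 2 arrays of a group correlated with a Pearson r between 0.947, for head E10.5, and 0.965, for trunk E10.5. The first E10.5 array of either tissue stood apart from the other 10 in Xist, the RNA that silences an X chromosome: 163 and 82.6 units against 3790 to 8801. The first head array at E10.5 also had the highest head signal for 13 of the 31 genes, and the second head array at E9.5 the lowest for 12. Markers of the labelled tissues went with the labels: all 5 head muscle progenitor genes (Tbx1, Isl1, Msc, Tcf21, Lhx2) were higher in head and all 4 trunk ones (Pax3, Meox1, Meox2, Tcf15) higher in trunk over the mean of the 3 stages. Of the other marker lists, 8 of 8 neuronal, 6 of 6 tested endothelial and 1 of 3 tested neural crest genes were higher in head. Higher in trunk were 2 of 5 tested neural progenitor genes, 1 of 2 tested sclerotome genes and 1 of 3 genes of the sorted muscle lineage. Of all tested genes, 10.5% were called either way over the mean of the 3 stages. By stage, 8 of 8 neuronal genes were higher in head at E9.5, 0 at E10.5 and 1 at E11.5. Of the 6 tested endothelial genes, 4, 4 and 2 were higher in head at these stages. The share of all tested genes called either way was 5.92%, 4.52% and 2.07%. Summed neuronal signal (8 genes) ran from 5320 to 12073 in head and from 557 to 6495 in trunk, that of the endothelium (7 genes, Pecam1 below the median on every array) from 1247 to 3316 and from 415 to 1054, that of neural progenitors (8 genes, Sox1, Sox3 and Olig2 below it) from 1105 to 3529 and from 2522 to 3486, and that of the sclerotome (3 genes, Nkx3-2 below it) from 142 to 279 and from 307 to 801. Their part in the Hox results was not tested.

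The promoters of 4 genes on which the results turn are shown as the 250 bases before the RefSeq start on GRCm38.p6, written along the gene's strand: Hoxd1 and Hoxb1, the only Hox genes called between stages, and Hoxc4 and Hoxa9, among those with the most negative head minus trunk values. Capitals mark matches to a searched motif, on either strand.
Hoxd1, chr2:74762730-74762979, plus strand: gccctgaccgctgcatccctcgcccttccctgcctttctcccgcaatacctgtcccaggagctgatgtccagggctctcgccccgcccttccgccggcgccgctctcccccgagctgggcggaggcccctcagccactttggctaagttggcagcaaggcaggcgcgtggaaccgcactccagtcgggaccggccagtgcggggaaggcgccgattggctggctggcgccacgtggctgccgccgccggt
Hoxb1, chr11:96365508-96365757, plus strand: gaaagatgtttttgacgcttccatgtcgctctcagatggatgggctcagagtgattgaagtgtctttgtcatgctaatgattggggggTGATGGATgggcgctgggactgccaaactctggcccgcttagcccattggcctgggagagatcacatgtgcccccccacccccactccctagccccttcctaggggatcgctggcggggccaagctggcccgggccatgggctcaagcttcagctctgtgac
Hoxc4, chr15:103034145-103034394, plus strand: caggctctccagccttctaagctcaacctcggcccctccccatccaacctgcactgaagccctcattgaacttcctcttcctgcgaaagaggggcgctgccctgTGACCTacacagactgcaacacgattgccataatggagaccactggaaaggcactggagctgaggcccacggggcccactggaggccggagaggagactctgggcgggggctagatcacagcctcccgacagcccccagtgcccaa
Hoxa9, chr6:52227371-52227620, minus strand: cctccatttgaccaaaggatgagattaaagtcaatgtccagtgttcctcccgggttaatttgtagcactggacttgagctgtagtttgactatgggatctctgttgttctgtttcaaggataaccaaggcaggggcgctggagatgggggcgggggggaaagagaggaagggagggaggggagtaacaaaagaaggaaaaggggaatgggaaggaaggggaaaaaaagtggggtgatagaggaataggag
RefSeq promoters were found for 18 of the 31 genes, 20 promoters in all. Hoxb1 held a match to TGATNNAT, a site bound by Hox and Pbx proteins together, that starts 162 bases before the gene. Hoxc4 held TGACCT, the other strand of the retinoic acid receptor core motif AGGTCA, 146 bases before its start. TGATNNAT was found in 3 of the 20 Hox promoters (15%) and in 7.68% of all 32851 promoters. AGGTCA was found in 4 (20%) against 14%, the Cdx site TTTATG in 2 (10%) against 10.8%, and the TATA box TATAAA in 2 (10%) against 12.4%. No sequence shown holds more than 1 match, so none overlap, and none was found in the Hoxd1 and Hoxa9 windows. A match of so few letters is a description and not a binding site. The Hox promoters held a median of 13 CpG dinucleotides (2 to 35), against a median of 6 (quartiles 2 and 16) for all promoters, with 24 in the Hoxd1 window, 7 in Hoxb1, 8 in Hoxc4 and 3 in Hoxa9.

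The first question was how the Hox genes of head and trunk muscle progenitors differed over the mean of the 3 stages. With all 12393 genes in the limma fit, 20 of the 31 Hox genes (64.5%) were lower in head and 0 were higher at an adjusted p under 0.05, where 2.1% of all genes were lower and 6.25% differed either way. The median log2 difference, head minus trunk, was −1.53 over the 31 genes and −0.00092 over the 7721 genes that passed a filter on dim signals. In 11 of the 31 (35.5%) every trunk array lay above every head array, which was so for 0.831% of all genes: Hoxa3, Hoxa5, Hoxa9, Hoxb3, Hoxb4, Hoxb5, Hoxb6, Hoxc4, Hoxc8, Hoxd8 and Hoxd9.

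The main fit kept the 7721 genes with a signal above the array median on at least 2 of the 12 arrays. Of the Hox genes 18 passed, and 18 of these 18 were lower in head (background 3.61% lower, 10.5% either way). This count follows in part from the filter: 12 of the 18 passed through their trunk arrays, having fewer than 2 head arrays above the median. The other 13 were Hoxa4, Hoxa10, Hoxa11, Hoxa13, Hoxb7, Hoxb9, Hoxb13, Hoxc5, Hoxc13, Hoxd10, Hoxd11, Hoxd12 and Hoxd13. Apart from Hoxa13 these lay below the median on every array with the probe set used, while the other probe set of Hoxa4 was above it on 1 trunk array (134). In trunk, 15 of the 31 lay above the median on all 6 arrays. In head, 9 of the 31 did so on any array, and Hoxa2 on 5 of 6 and Hoxd1 on 4 of 6 did so most often.

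**Figure D1:**
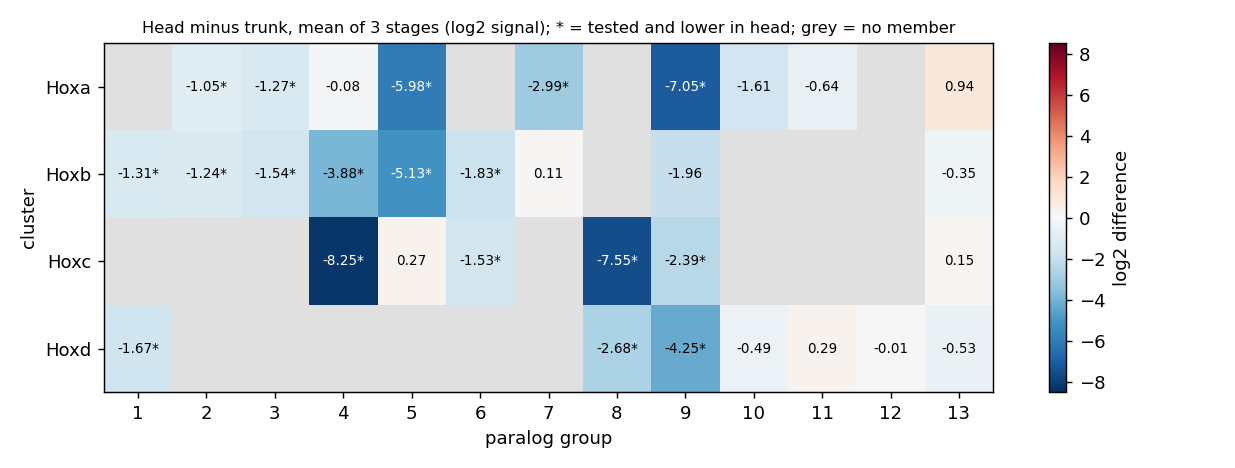
Head minus trunk difference in log2 signal, mean of the 3 stages, for the 31 Hox genes, by cluster (rows) and paralog group (columns); an asterisk marks a gene that was tested and lower in head, and grey squares hold no gene analysed here. Values in groups 1 to 3 lie between −1.67 and −1.05, the most negative ones are in groups 4 to 9, and no gene of groups 10 to 13 was tested.

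By paralog number the genes fell into 3 stretches, which were drawn after the values were seen and are given with no test. In groups 1 to 3 the differences of the 6 genes over the mean of the 3 stages were close together, with a median of −1.29 and a range of −1.67 to −1.05. They were further apart at single stages: −3.91 to −1.24 at E9.5, −1.76 to −0.11 at E10.5 and −1.67 to 0.10 at E11.5. A head array lay above the median for 5 of the 6. In groups 4 to 9, with 16 genes, the median was −2.84 and the range −8.25 to 0.27. In groups 10 to 13, with 9 genes, the median was −0.35 and the range −1.61 to 0.94, and 8 of the 9 lay below the median on every array. Spearman's rho between paralog number and the log2 difference was −0.432 over the 22 genes of groups 1 to 9 and 0.326 over the 31. These points are genes measured on the same 12 arrays by different probes, and a log2 difference from a dim head signal is not a measured fold, so folds are given as bounds against the array median.

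Among the genes of groups 1 to 3, Hoxa2 patterns the second branchial arch, where its loss gives skeletal elements of the first arch. Its signal was 82.3 and 129 at E9.5, 211 and 152 at E10.5, and 140 and 130 at E11.5 in head. In trunk it was 344 and 253, 341 and 247, and 191 and 345. Of the head arrays, only the first at E9.5 was below the median, and the highest head array, at E10.5, lay above the lowest trunk array, at E11.5. Hoxa2 was at least 1.97-fold lower in head (log2 −1.05 ± 0.20 SE, limma adjusted p = 0.00469).

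Hoxb3, which acts in the hindbrain and in arch derivatives, read 125 and 65.7, 68.9 and 132, and 91.5 and 86.7 in head at the 3 stages in order. Its trunk arrays read 256 and 233, 370 and 281, and 233 and 247. Head and trunk did not overlap, although the first E9.5 and the second E10.5 head arrays exceeded the median. Hoxb3 was at least 2.30-fold lower in head (log2 −1.54 ± 0.21, adjusted p = 0.000514).

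Its paralog Hoxa3, needed for the thymus and parathyroid, was at least 2.24-fold lower (−1.27 ± 0.17, adjusted p = 0.00055) with head arrays from 89.2 to 164 and trunk arrays from 230.3 to 334. Hoxb2, a hindbrain gene, was at least 1.98-fold lower (−1.24 ± 0.24, adjusted p = 0.00508), with head arrays from 50.2 to 157 and trunk arrays from 151 to 342. The ranges of Hoxb2 overlapped and those of Hoxa3 did not. Hoxb1 and Hoxd1, the genes of group 1, changed with stage and are described with the stages.

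In groups 4 to 9, Hoxc4 lies at the low-numbered end of the Hoxc cluster and marks neck and thoracic levels. Its head signal was 3.66 and 4.58 at E9.5, 24.6 and 7.85 at E10.5, and 15.7 and 4.31 at E11.5. Its trunk signal was 1626 and 2618, 1745 and 3001, and 3078 and 2492. All 6 trunk arrays were far above all 6 head arrays, none of which reached the median, for a bound of at least 21.4-fold (log2 −8.25 ± 0.35, adjusted p = 1.33e-07).

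Hoxa5, which patterns the neck-to-thorax skeleton and the lung, read 22.8 and 6.28, 31.1 and 13.1, and 24.8 and 11.8 in head. The trunk arrays read 738 and 1154, 839 and 1195, and 986 and 1259. The tissues did not overlap and no head array reached the median. The bound was at least 9.19-fold lower in head (−5.98 ± 0.34, adjusted p = 8.56e-07).

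Hoxc8, a gene of thoracic and forelimb levels, read 20.2 and 2.95, 35.2 and 24.5, and 63.6 and 14.9 in head. The trunk signal was 2448 and 2850, 2792 and 3605, and 5521 and 5358. The trunk arrays at E11.5 were the highest, the head arrays were all below the median, and the bound was at least 32.5-fold lower in head (−7.55 ± 0.43, adjusted p = 8.56e-07).

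Hoxa9, a gene of lower thoracic and lumbar levels, read 40.9 and 15.9, 18.8 and 52.1, and 81.5 and 33.3 in head. Trunk arrays read 2420 and 4873, 4942 and 5930, and 5585 and 4887. The first trunk array at E9.5 was lowest of the 6 trunk arrays and still far above every head array. The bound was at least 41.8-fold lower in head (−7.05 ± 0.32, adjusted p = 1.64e-07). The Hoxc4 and Hoxa9 promoters printed above, the pair with the most negative values that have one, shared none of the searched motifs.

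Hoxb6, whose group can induce ribs, read 52.1 and 34.9, 56.0 and 38.9, and 49.2 and 73.0 in head. In trunk it read 142 and 241, 202 and 195, and 138 and 153. The tissues did not overlap, no head array reached the median, and Hoxb6 was at least 1.59-fold lower in head (−1.83 ± 0.22, adjusted p = 0.000262).

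Hoxa7, a thoracic gene, was the one of the 18 whose call over the mean of the 3 stages was lost under any alternative run. It read 5.97 and 5.14, 12.8 and 5.59, and 6.85 and 5.46 in head. In trunk it read 36.8 and 83.3, 10.3 and 40.5, and 112 and 144, so that only the E11.5 arrays passed the median and the first E10.5 array fell within the head range. The log2 difference was −2.99 ± 0.66 (adjusted p = 0.0124), no fold bound can be given, and the call was lost without any one of 4 trunk arrays (the second at E9.5, the second at E10.5 and either at E11.5), with adjusted p up to 0.0632, and with signals raised to the array median (adjusted p = 0.597).

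The remaining tested genes of groups 4 to 9 were Hoxb4, Hoxb5, Hoxc6, Hoxc9, Hoxd8 and Hoxd9, which act at neck, thoracic and lumbar levels. Their bounds ran from at least 1.62-fold (Hoxc6, log2 −1.53 ± 0.31) through 1.78-fold (Hoxd9, −4.25 ± 0.45), 2.28-fold (Hoxb4, −3.88 ± 0.38), 2.41-fold (Hoxc9, −2.39 ± 0.50) and 2.81-fold (Hoxb5, −5.13 ± 0.48) to 2.96-fold (Hoxd8, −2.68 ± 0.38). For Hoxc6 and Hoxc9 single head arrays, the first at E10.5 for Hoxc6 (165) and the first at E9.5 and E11.5 for Hoxc9 (140 and 171), lay above the lowest trunk arrays (153 and 135). The other 4 did not overlap.

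Genes next to each other in a cluster gave unlike values. Along Hoxc, Hoxc5 was below the median on every array (3.93 to 33.7) with a difference of 0.27 ± 0.55, between Hoxc4 at −8.25 and Hoxc6 at −1.53. Along Hoxb, Hoxb7 (15.8 to 61.6, difference 0.11 ± 0.37) lay beside Hoxb6 at −1.83. Hoxb9 (3.37 to 56.8) and Hoxa10 (5.87 to 65.3) were dim throughout too, yet were called in the fit without the filter (−1.96 ± 0.47, adjusted p = 0.0256, and −1.61 ± 0.42, adjusted p = 0.0399). For dim probe sets these values do not show whether the gene was silent or the probes were weak, and Hoxa4 differed by −0.08 with the probe set used and by −2.71 with its other one.

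Genes of groups 10 to 13 pattern the lumbar, sacral and tail levels and the limbs. Hoxa10, which represses ribs at lumbar levels, read 11.6 and 13, 6.27 and 22.8, and 5.87 and 11.7 in head. The trunk values were 15.8 and 27.0, 30.7 and 65.3, and 51.9 and 27.0. Every trunk array except the first at E9.5 lay above every head array.

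Hoxa11, a gene of sacral levels and the forearm, read 38.8 and 57.7, 9.82 and 49.9, and 36.6 and 59.2 in head. In trunk it read 67.7 and 82.8, 81.0 and 70.1, and 33.8 and 31.4. Trunk arrays were above every head array at E9.5 and E10.5 and within the head range at E11.5, and the mean difference was not called (−0.64 ± 0.37, adjusted p = 0.403 without the filter).

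Hoxa13, a gene of the hand, foot and tail end, read 30.0 and 79.1, 130 and 13.7, and 24.9 and 28.0 in head. Trunk values were 35.9 and 41.0, 7.18 and 20.6, and 14.3 and 18.7. A single array, the first of head at E10.5, was above the median, and its difference was not called (0.94 ± 0.52, adjusted p = 0.373). Hoxd12, which acts in the limb, read 16.8 and 7.52, 58.7 and 6.27, and 10.95 and 13.4 in head. In trunk it read 8.31 and 12.6, 7.59 and 17.8, and 19.4 and 25.7, within the head range on every array (−0.01 ± 0.53, adjusted p = 0.995). Of 6 limb mesenchyme genes, Tbx5, Tbx4, Lmx1b, Hand2 and Shox2 were below the median on every array of both tissues, as were Pax8 and Osr1 of 3 intermediate mesoderm genes. The remaining limb mesenchyme gene, Prrx1, was tested: it was higher in head at E9.5 (1.14 ± 0.27, adjusted p = 0.0295), did not pass over the mean of the 3 stages (0.0027 ± 0.16, adjusted p = 0.994), and rose in trunk from E9.5 to E11.5 (2.66 ± 0.27, adjusted p = 0.000106). The summed signal of the 6 genes went from 438 and 556 at E9.5 to 2472 and 2676 at E11.5 in trunk, and from 930 and 955 to 1526 and 2461 in head. Its part in the Hox values was not tested.

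**Figure D2:**
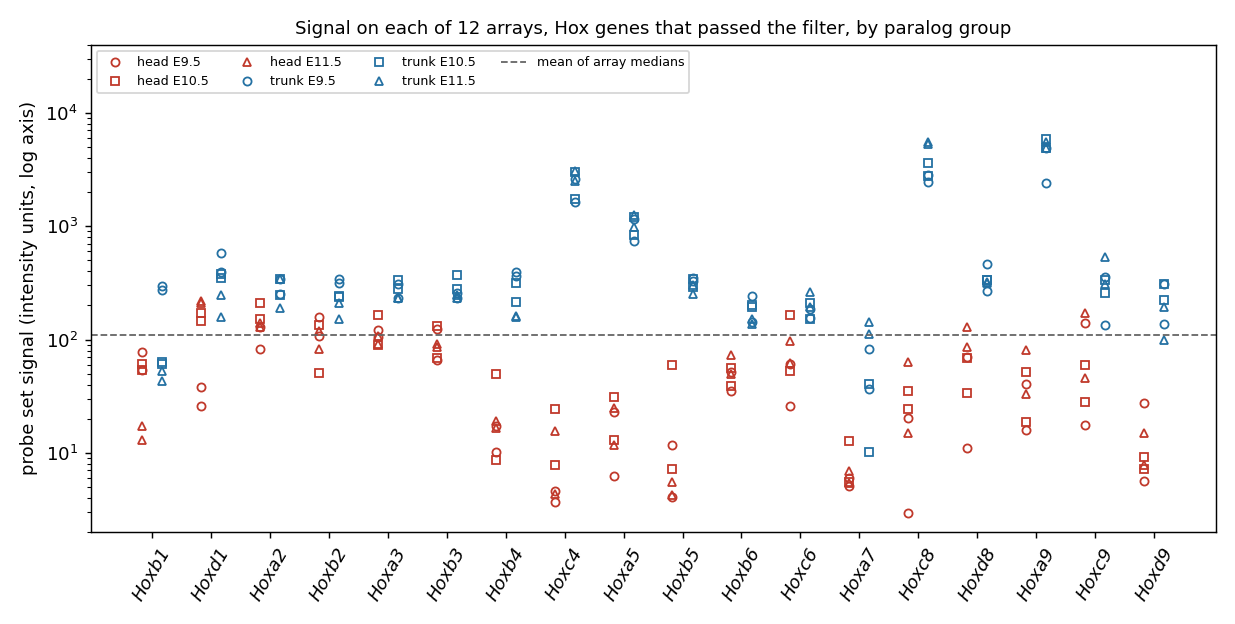
Probe set signal (intensity units, log axis) of the 18 tested Hox genes on each of the 12 arrays, ordered by paralog group, with head in red, trunk in blue, a shape for each stage, and a dashed line at the mean of the array medians. Head arrays of Hoxa2, Hoxa3, Hoxb2, Hoxb3, Hoxc6, Hoxc9, Hoxd1 and Hoxd8 reach the line, while those of Hoxa5, Hoxa9, Hoxb4, Hoxb5, Hoxb6, Hoxc4, Hoxc8, Hoxd9, Hoxa7 and Hoxb1 stay below it.

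Head and trunk were next compared at each stage. At E9.5, 15 of the 18 tested genes were lower in head (background 1.24% lower, 5.92% either way), and Hoxa7, Hoxb2 and Hoxc9 were not called. At E10.5, 12 were lower (background 2.07% lower, 4.52% either way), and Hoxa2, Hoxa7, Hoxb1, Hoxb2, Hoxc6 and Hoxc9 were not called. At E11.5, 7 were lower (background 1.36% lower, 2.07% either way): Hoxa5, Hoxa9, Hoxb4, Hoxb5, Hoxc4, Hoxc8 and Hoxd9, 0 of the 6 genes of groups 1 to 3 among them. At that stage 16 of the 18 had an unadjusted limma p under 0.05, as did 917 of all 7721 genes tested. Without the filter the counts over the 31 genes were 13, 9 and 8, against 0.718%, 0.912% and 0.775% of all genes lower.

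These single-stage counts rest on 2 arrays a side and moved when an array was left out. The E9.5 count was 8 without the second trunk array of that stage, and the E10.5 count was 5 without the first and 4 without the second trunk array. It was 6 without both first arrays of E10.5, those with low Xist. The median difference at E9.5, E10.5 and E11.5 was −3.49, −2.45 and −1.93 over the 18 tested genes, and −1.52, −1.55 and −1.28 over all 31. The head change from E9.5 to E11.5 minus the trunk change was below 0 for 3 of the 18 and above 0 for the others, with a median of 0.47 (0.01 over all genes tested), and limma called it for Hoxd1 alone. Of the 18, 10 had no head array above the median, so their head changes lie among dim signals. The second head array at E9.5 was also the lowest head array for 12 of the 31 genes. With 2 arrays a group, a difference in change that was not called is not shown to be absent.

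Hoxa5, Hoxa9, Hoxc4 and Hoxc8 were called at each of the 3 stages, and stayed called without any one array. Their values at E9.5, E10.5 and then E11.5 were −6.27, −5.63 and −6.02 for Hoxa5, with an SE of 0.60 each. For Hoxa9 they were −7.08, −7.44 and −6.65 (SE 0.56), for Hoxc4 −8.98, −7.36 and −8.40 (SE 0.61), and for Hoxc8 −8.42, −6.76 and −7.47 (SE 0.75). Hoxb4, Hoxb5 and Hoxd9 were called at each of the 3 stages too, though not with every single array left out. Hoxb5 gave −5.61, −3.93 and −5.83 (SE 0.83), and at E10.5 it ran from −5.46 to −2.40 with single arrays left out. In groups 1 to 3, Hoxa3 gave −1.24, −1.34 and −1.23 (SE 0.30) and Hoxb3 −1.43, −1.76 and −1.43 (SE 0.36). Both were called at E9.5 and E10.5 and not at E11.5 (adjusted p = 0.0667 for Hoxa3 and 0.0741 for Hoxb3), with the value at E11.5 within its SE of that at E9.5. Leaving out single arrays ended each of these calls, with adjusted p up to 0.237, as did some other settings, with adjusted p up to 0.545 (Hoxb3 at E10.5 without both first arrays of that stage). At E11.5 the calls of Hoxb4 (−3.17 ± 0.66, adjusted p = 0.0324) and Hoxd9 (−3.69 ± 0.78, adjusted p = 0.034) were also lost without some single arrays, with adjusted p up to 0.172 and 0.26, and with signals raised to the array median (0.202 and 0.779).

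**Figure D3:**
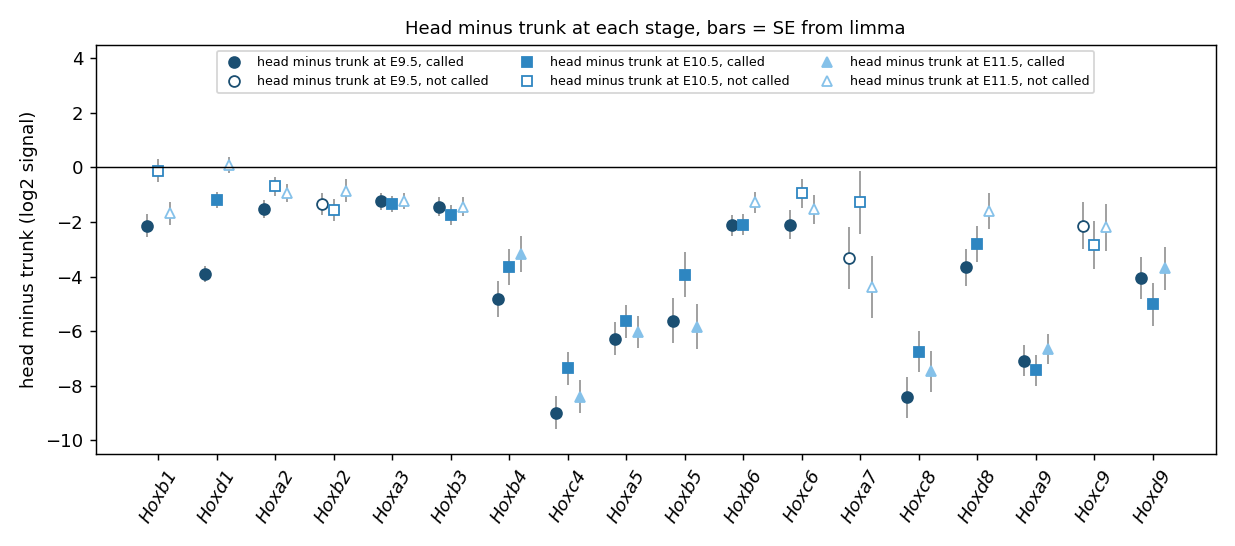
Head minus trunk difference in log2 signal at E9.5 (circles), E10.5 (squares) and E11.5 (triangles) for the 18 tested Hox genes in order of paralog group; bars are the SE from limma, filled symbols are called and open ones are not. Hoxd1 moves from −3.91 at E9.5 to 0.10 at E11.5, while Hoxa3 stays between −1.34 and −1.23 and Hoxa9 between −7.44 and −6.65.

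Hoxd1, the group 1 gene of the Hoxd cluster, known from the mesoderm that forms somites and from sensory neurons, moved in opposite directions in the 2 tissues. Its head signal was 26.0 and 38.2 at E9.5, 172 and 147 at E10.5, and 219 and 209 at E11.5. Its trunk signal was 393 and 574, 349 and 375, and 248 and 159. Head arrays were below the median at E9.5 and above it at both later stages, and at E11.5 both head arrays lay between the 2 trunk arrays.

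Between the tissues, Hoxd1 was at least 4.32-fold lower in head at E9.5 (log2 −3.91 ± 0.30, adjusted p = 1.63e-05) and 2.28-fold lower at E10.5 (−1.19 ± 0.30, adjusted p = 0.0445). The E10.5 call was lost without any one of 6 arrays, the E10.5 ones of both tissues and the E11.5 ones of head, with adjusted p up to 0.228. It was also lost without the filter, without the intensity trend, with the replicate block and without both first arrays of E10.5, with adjusted p up to 0.461. At E11.5 the difference was 0.10 ± 0.30 (adjusted p = 0.965). Over the mean of the 3 stages Hoxd1 was at least 2.09-fold lower in head (−1.67 ± 0.17, adjusted p = 7.15e-05).

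Within head, Hoxd1 rose by at least 1.45-fold from E9.5 to E10.5 (log2 2.34 ± 0.30, adjusted p = 0.00435), the only Hox gene called in that comparison (background 0.699% higher, 0.958% either way). That call was lost without the first head array of E10.5 (2.22, adjusted p = 0.0686) and without the first E10.5 arrays of both tissues. From E9.5 to E11.5 it rose by at least 1.94-fold (2.76 ± 0.30, adjusted p = 0.00038). With signals raised to the array median the changes were 0.53 (adjusted p = 0.332) and 0.96 (adjusted p = 0.0561), since the E9.5 arrays were dim.

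Within trunk, Hoxd1 fell 2.39-fold from E9.5 to E11.5 (−1.26 ± 0.30, adjusted p = 0.0157). The call was lost without the second trunk array of E9.5 or the second of E11.5, with adjusted p up to 0.141. The difference between the changes was 4.02 ± 0.42 (adjusted p = 0.000861), called for 1 of the 18 tested genes (background 0.272% higher, 1.48% either way), and it was called without any one array, at 3.70 to 4.34. These comparisons share arrays, so their values are not independent of each other. The Hoxd1 promoter printed above had 71.6% G and C and, like that of Hoxa9, none of the searched motifs.

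Over the same stages, markers of other cells and of the sorted muscle lineage changed too. Summed neuronal signal went from 5320 and 8998 in head at E9.5 to 7237 and 12073 at E11.5. There 1 of 8 neuronal genes fell and 0 rose, with a median log2 change of 0.82. In trunk the sum went from 557 and 991 to 5258 and 6495, where 8 of 8 neuronal genes rose. Summed neural crest signal (4 genes on the array) went from 1680 and 2221 to 3748 and 4077 in head, and from 1108 and 1386 to 2065 and 2235 in trunk. Of 3 tested neural crest genes, 1 rose in each tissue. Their median log2 change was −0.13 in head and −0.25 in trunk. Summed muscle lineage signal (Myf5, Myod1, Myog) went from 622 and 893 to 5427 and 5524 in head, where 3 of 3 genes rose, and from 1182 and 1621 to 3101 and 3267 in trunk. Markers of the labelled tissues moved as well. Summed trunk muscle progenitor signal (Pax3, Meox1, Meox2, Tcf15) went from 481 and 722 to 1206 and 1450 in head, where 2 of 4 genes rose (background 4.78% either way), and from 6182 and 6564 to 2925 and 3176 in trunk, where 1 of 4 fell (background 13.4% either way). That is the direction of Hoxd1 in each tissue. The head change minus the trunk change was called above 0 for 2 of the 4, Meox1 (3.34 ± 0.46, adjusted p = 0.00416) and Meox2 (2.24 ± 0.31, adjusted p = 0.00391). The background was 0.272% higher and 1.48% either way. Other lists were called in it too: 2 of 3 muscle lineage genes above 0. Below 0 were 3 of 5 head muscle progenitor, 3 of 8 neuronal and 1 of 5 tested neural progenitor genes. Of 3 tested neural crest genes 0 were called. Summed head muscle progenitor signal (5 genes) went from 303 and 356 to 1657 and 1943 in trunk, where 4 of 5 rose, and from 5559 and 8376 to 8041 and 8498 in head, where 1 of 5 rose. Summed neural progenitor signal went from 2672 and 2797 to 1105 and 1160 in head, where 2 of 5 tested genes fell and 1 rose. In trunk it went from 2522 and 3116 to 3359 and 3379, where 2 of 5 rose and 1 fell. The part of these cells and genes in the Hoxd1 result was not tested.

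Hoxb1, which gives the hindbrain segment of the facial motor neurons its identity and carries a Hox and Pbx motif in the promoter printed above, fell in trunk. Its trunk signal was 295 and 273 at E9.5, 60.8 and 63.4 at E10.5, and 42.7 and 53.2 at E11.5. Its head signal was 54.1 and 77.6, 54.0 and 61.0, and 17.3 and 12.9. The 2 trunk arrays of E9.5 were the only arrays above the median, and the trunk and head ranges overlapped at E10.5.

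Hoxb1 fell at least 2.59-fold in trunk from E9.5 to E11.5 (log2 −2.57 ± 0.43, adjusted p = 0.00207), a call kept without any one array, with adjusted p up to 0.0328. Most of it lay between E9.5 and E10.5 (at least 2.58-fold, −2.19 ± 0.43, adjusted p = 0.0098), where Hoxb1 was the only Hox gene called (background 1.74% lower, 7.2% either way). That earlier call was lost without the first trunk array of E9.5 or either trunk array of E10.5, with adjusted p up to 0.114, and without both first arrays of E10.5 (adjusted p = 0.12). In head it fell by 2.12 on the log2 scale from E9.5 to E11.5 (SE 0.43, adjusted p = 0.0137), but all 6 head arrays were below the median, so no fold is given, and the call was lost without the second head array of E9.5 or of E11.5, with adjusted p up to 0.0769, and with signals raised to the array median (adjusted p = 0.999). Hoxb1 was at least 2.58-fold lower in head at E9.5 (−2.13 ± 0.43, adjusted p = 0.0104). That call was lost without the first head array or either trunk array of E9.5, and with single arrays left out the value ran from −2.39 to −1.87. Head minus trunk was not called at E10.5 (−0.11 ± 0.43, adjusted p = 0.894) or at E11.5 (−1.67 ± 0.43, adjusted p = 0.0748). The head change from E9.5 to E11.5 minus the trunk change was 0.46 ± 0.60 and not called (adjusted p = 0.866).

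**Figure D4:**
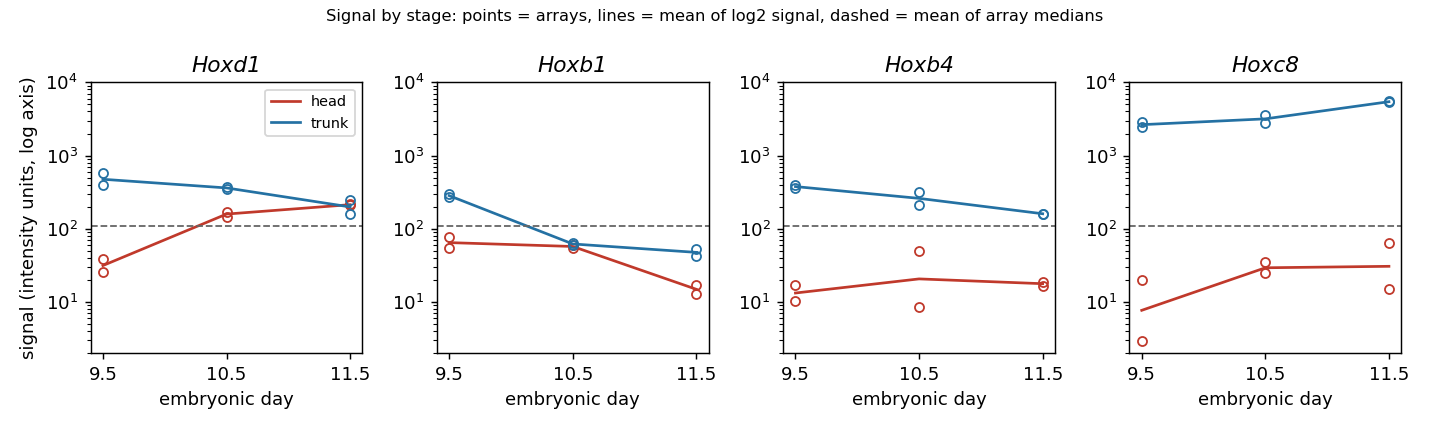
Signal (intensity units, log axis) of Hoxd1, Hoxb1, Hoxb4 and Hoxc8 by embryonic day, with head in red and trunk in blue; points are arrays, lines join the means of log2 signal, and the dashed line is the mean of the array medians. Hoxd1 goes up in head and down in trunk, Hoxb1 starts above the dashed line only in trunk at E9.5, and Hoxb4 and Hoxc8 stay far apart between the tissues.

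Between stages, limma called Hoxb1 and Hoxd1 alone among the Hox genes of the main fit. With 2 arrays a group, a Hox gene that was not called is not shown to be unchanged. In trunk from E9.5 to E11.5, 2 of the 18 tested genes fell, Hoxb1 and Hoxd1, and 0 rose (background 4.71% lower, 13.4% either way), so the share of Hox genes called was near that of all genes. An unadjusted limma p under 0.05 was reached by 2 of the 18 and by 2029 of all 7721 genes tested. In head over the same span 1 rose, Hoxd1, and 1 fell, Hoxb1 (background 2.75% higher, 2.03% lower, 4.78% either way). From E10.5 to E11.5, 0 of 18 were called by limma in trunk (background 0.0259% either way) and 0 of 18 in head (background 0.984%). In each tissue 2 of the 18 had an unadjusted limma p under 0.05. Of all 7721 genes tested, 601 did so in trunk and 1305 in head.

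In trunk from E9.5 to E11.5 the 6 genes of groups 1 to 3 had differences from −2.57 to −0.02, with a median of −0.54. Of the 12 tested genes of groups 4 to 9, 5 were below 0, with a median of 0.34. Hoxb4 and Hoxc8 were furthest on either side of 0 among the genes of those groups that lay above the median on all 6 trunk arrays. Hoxb4 read 395 and 361 in trunk at E9.5, 317 and 214 at E10.5, and 159 and 162 at E11.5, which is 2.35-fold less at E11.5 (−1.23 ± 0.66, adjusted p = 0.269), and the stages did not overlap. Hoxc8 was 2.06-fold higher at E11.5 than at E9.5 (1.04 ± 0.75, adjusted p = 0.422). Neither was called, and both were called with an offset of 50 added to the signal, at −1.02 (adjusted p = 0.0217) for Hoxb4 and 1.03 (adjusted p = 0.0183) for Hoxc8.

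Partners and regulators of Hox genes were taken from lists. Of 9 Pbx, Meis and Pknox genes, which encode cofactors that bind DNA with Hox proteins, 4 were tested over the mean of the 3 stages, and Meis1 alone was called (background 10.5% either way, 3.61% lower). It was lower in head (−1.67 ± 0.21, adjusted p = 0.00033). Meis2 was at −0.27 ± 0.09 (adjusted p = 0.0695), Pbx3 at 0.19 ± 0.12 and Pbx2 at −0.02 ± 0.17, and none of these 3 was called.

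Of 15 regulators of Hox position, 6 were tested and 1 was called (background 10.5% either way, 3.61% lower): Aldh1a2, which makes retinoic acid, was lower in head (−3.40 ± 0.45, adjusted p = 0.000407). Cyp26a1, which breaks retinoic acid down, was at 1.22 ± 0.36 (adjusted p = 0.053), Egr2, a hindbrain regulator, at 0.51 ± 0.18 (adjusted p = 0.106), and Cdx2, an activator of Hox genes in the tail bud, at −0.83 ± 0.34 (adjusted p = 0.155). By single stage, 1 of the 6 was called at E9.5, lower in head (background 1.24% lower, 5.92% either way). Aldh1a2 was not called at E10.5 or E11.5, where 0 of the 6 were (background 4.52% and 2.07% either way). Cdx2 fell in trunk from E9.5 to E11.5 (−2.53 ± 0.59, adjusted p = 0.0143). It was the 1 of 6 tested regulators called in that comparison (background 4.71% lower, 13.4% either way). The part of Cdx2 in the Hox values was not tested. Of 19 Polycomb and trithorax genes, which keep Hox clusters silent or active, 15 were tested and 0 were called by limma between head and trunk (background 10.5% either way), with a median of −0.05. So few genes cannot show whether their share called differs from that of all genes, and a gene not called is not shown to be unchanged. Of these 15, 1 had an unadjusted limma p under 0.05, Phc2 (0.30 ± 0.11, adjusted p = 0.126), as did 1882 of all 7721 genes tested.

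The genes next to the clusters were looked at in the same way. Of 16 flanking genes, the 2 nearest protein-coding ones on each side of each cluster, 6 were tested and 1 was called (background 10.5% either way, 3.61% lower). Skap2, a neighbour of the Hoxa cluster on chromosome 6, was the one called, lower in head (−1.63 ± 0.10, adjusted p = 1.23e-06), and it fell in trunk from E9.5 to E11.5 (−1.22 ± 0.18, adjusted p = 0.000953). Snx10, which lies beyond Skap2, was at 0.36 ± 0.20 (adjusted p = 0.3), and Cbx5, on the Hoxc4 side of its cluster, at 0.19 ± 0.11 (adjusted p = 0.345). Mtx2, on the Hoxd1 side of its cluster, was at −0.16 ± 0.12 (adjusted p = 0.465). Evx1 and Evx2, homeobox genes at the group 13 ends of Hoxa and Hoxd, were below the median on every array, as were Hoxa11, Hoxd11, Hoxd12 and Hoxd13.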

How the data were processed

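Total RNA of the sorted cells was amplified, labelled with biotin and hybridised, per the labels. The deposited values are probe set signals, with intensity on a linear scale as their unit, which the authors made with MAS5 in Affymetrix Expression Console, per the submitters' processing notes; no version is given in the sources used here. The table held 22690 probe sets, 64 of them controls, and the 20380 naming 1 gene were used. From these, log2 was taken with no further normalization. Genes were tested with limma 3.58.1 in R 4.3.3, with 1 mean per group, an intensity trend and Benjamini-Hochberg adjustment over 7721 genes (12393 without the filter), two-sided, at 0.05; there were 6 residual and 5.87 prior degrees of freedom and 11 comparisons. "Called" means past that threshold. "At least" marks folds in which dim arrays were raised to the array median. The method was tested on simulated data. The number of arrays limits the precision.

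Values on every array are given for the gene of smallest p in each paralog group, for genes called between stages, and for genes above the median on both arrays of a head group; Hoxb4 was added after its values were seen. Up to 4 genes of smallest p are named per list. The genes and lists were chosen with earlier results of these data known. Alternatives were quantile normalization, median centring, no filter, an offset of 50, signals raised to the array median, the mean of all probe sets, no probe sets of suffix s, x or a, no intensity trend, a replicate block, each array left out, and both first E10.5 arrays left out.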

Additional observations from a re-analysis of the deposited data

Results flagged for a closer look

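Hoxd1 was singled out because its change from E9.5 to E11.5 differed between the tissues: the head change minus the trunk change was 4.02 on the log2 scale (SE 0.42, limma adjusted p = 0.000861). Both head arrays of E11.5 were above both head arrays of E9.5, and both trunk arrays of E11.5 were below both trunk arrays of E9.5.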

How the results depend on the processing

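Hox genes lower in head over the mean of the 3 stages numbered 17 to 18 when any one array was left out. Left-out arrays gave 8 to 16 at E9.5, 4 to 13 at E10.5 and 5 to 9 at E11.5. For stage changes they gave 0 to 1 (trunk E9.5 to E10.5), 1 to 2 (trunk E9.5 to E11.5), 0 to 2 (head E9.5 to E10.5), 0 to 1 (head E10.5 to E11.5), 1 to 4 (head E9.5 to E11.5) and 1 to 2 (difference between the changes). Without both first arrays of E10.5 the counts were 6 between tissues at E10.5, 0 for trunk E9.5 to E10.5 and 0 for head E9.5 to E10.5. With an offset of 50, trunk E9.5 to E11.5 gave 4 (Hoxb1, Hoxb4 and Hoxd1 lower, Hoxc8 higher). With signals raised to the array median it gave 5 (Hoxb2 also lower), head E9.5 to E10.5 gave 0, head E9.5 to E11.5 gave 0, and the difference between the changes gave 3 (Hoxb1, Hoxb4 and Hoxd1). Without the intensity trend, head E10.5 to E11.5 gave 1 (Hoxb1, −1.94, adjusted p = 0.0119). The floor removes differences among dim signals by construction; for the other settings the cause was not tested. Of 59 called gene results, 35 kept the call under every alternative, 24 lost it under at least 1, and 0 changed sign.

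Whether the replicate number pairs head and trunk arrays is not known. Across 15 pairs of groups, replicate differences correlated between −0.299 and 0.173, with 2 pairs over 0.1. Such values cannot exclude that head and trunk of a single stage shared embryos. At E10.5 the first array of either tissue had low Xist. With the replicate block the counts were 18 over the mean, 13 at E9.5, 11 at E10.5 and 8 at E11.5, and those of the stage changes were as without it. Quantile normalization and median centring kept the median of all genes between −0.018 and 0.022 in every comparison. Signals below the array median limit what can be said of the 13 genes that were not tested.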

Other observations

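More than 1 probe set existed for 5 of the Hox genes and gave the same sign of head minus trunk difference in each, with unlike sizes. For Hoxa9 the probe set used gave −7.05 and the other −1.19, the other reading 12.1 to 76.5 in head and 57.2 to 108 in trunk. For Hoxb4 the values were −3.88 and −1.22. For Hoxa4, whose probe set of highest mean may also match other transcripts by its suffix, they were −0.08 and −2.71, and the other probe set read 3.09 to 35.1 in head and 53.9 to 134 in trunk, with no overlap. For Hoxa3 they were −1.27 and −1.16, and for Hoxc6 −1.53, −2.16 and −2.15.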
